A study of Mus musculus with 14 samples.

Results

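Antioxidant enzymes were represented by 10 genes, listed by name: the superoxide dismutases Sod1 and Sod2, catalase (Cat), the glutathione peroxidases Gpx1 and Gpx4, the peroxiredoxins Prdx1, Prdx2, Prdx3 and Prdx5, and Gclm, the modifier subunit of glutamate-cysteine ligase. They are 10 of 39017 gene identifiers counted, and all 10 were among the 21298 genes that passed the filter on low counts. Their lowest count in any library was 2566 reads, for Cat.

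Polysome-bound mRNA of parvalbumin-expressing interneurons (PV neurons) was isolated by translating ribosome affinity purification (TRAP), in which a tagged ribosomal protein is pulled down together with the mRNA on its ribosomes. Mice were males of C57BL/6 background that carried a Cre-dependent EGFP-L10a allele and PV-Cre, so the tag marks every cell in which the parvalbumin promoter drove Cre. The hippocampus was sampled after chronic social defeat stress (CSDS), in which a mouse is repeatedly attacked by a larger CD-1 male, from 4 libraries labelled CTRL that were not defeated, 4 labelled resilient and 3 labelled susceptible, the last being mice that avoided an unfamiliar CD-1 mouse afterwards. Total RNA of hippocampal homogenate from non-defeated mice formed the input group, with 3 libraries. All 4 groups carried the same alleles, and the sources do not say whether a library is 1 mouse or a pool. The p-values measure the spread between these libraries.

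Superoxide, a by-product of respiration, is converted by superoxide dismutases to hydrogen peroxide, in the cytosol by SOD1 and in the mitochondrial matrix by SOD2. Peroxide is then removed by catalase in peroxisomes, by glutathione peroxidases that spend glutathione, and by peroxiredoxins that draw on thioredoxin. Several of these genes are targets of NRF2, a transcription factor that binds antioxidant response elements. PV neurons fire fast and have a high energy demand, and oxidative stress in them is widely studied.

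The core of the antioxidant response element, TGACNNNGC on either strand, was searched in the 300 bases around each RefSeq start (250 before and 50 after it, build GRCm38.p6). It was found in 3 of 10 members, Sod1, Prdx1 and Gclm, against 14 of the 59 other antioxidant pathway genes with a promoter in the table (23.7%), 14% of 27025 genes and 12.4% of 32851 promoters of this length. The 3 windows show the matches, which the other 7 members lack in the bases searched. The count was not tested against these shares. Each is the plus strand of the named gene's chromosome, also the coding strand, with the match in capitals as the reverse complement of the core. It begins 56, 133 and 134 bases before the start, respectively, and the windows lie at chr16:90220681-90220740, chr4:116685441-116685500 and chr3:122245398-122245457.
Sod1: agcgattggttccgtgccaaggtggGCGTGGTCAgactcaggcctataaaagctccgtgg
Prdx1: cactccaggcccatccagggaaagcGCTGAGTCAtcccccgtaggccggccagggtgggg
Gclm: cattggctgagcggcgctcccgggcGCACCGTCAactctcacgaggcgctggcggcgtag
A match is a run of letters only, and binding was not measured.

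Library totals ran from 64110214 to 94726962 counts, with no group set apart by depth. Markers of PV and GABA neurons summed to 3088 to 4265 counts per 1000000 (CPM) in the TRAP libraries against 517 to 616 in input, and all 6 were higher in the TRAP of non-defeated mice. Astrocyte markers summed to 166 to 352 CPM in TRAP against 527 to 581 in input. In the TRAP of non-defeated mice 5 of 6 were lower, while Aldh1l1 was at a log2 fold change of -0.34 (edgeR adjusted p = 0.532), with overlapping libraries. Endothelial markers, at 7.64 to 14.1 CPM in non-defeated TRAP against 5.73 to 8.36 in input, ran the other way, with 2 of 6 higher and none lower. Red blood cell markers summed to 116 to 243 CPM in non-defeated, 129 to 599 in resilient and 890 to 1239 in susceptible libraries. In bulk samples, fewer cells of a type and less RNA per cell cannot be told apart. How RNA of other cell types came into the TRAP pull-down was not tested.

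Compared per length, the 10 genes spanned a wide range in PV neurons. Levels here are TMM-normalised CPM divided by the length of the main transcript in kilobases (RPKM), as mean ± SD in the TRAP of non-defeated mice (n = 4). Gpx4, which reduces lipid peroxides in membranes, was highest at 741 ± 82.9 RPKM. Prdx5, a peroxiredoxin of mitochondria, peroxisomes and cytosol, followed at 671 ± 31.7 RPKM, and the libraries of these top genes overlapped. Prdx2, a cytosolic peroxiredoxin, stood at 404 ± 20.3 RPKM and Sod1 at 362 ± 51.2 RPKM, again with overlapping libraries. Gpx1, the main cytosolic glutathione peroxidase, was at 257 ± 69.1 RPKM and its libraries overlapped those of Sod1. Prdx3, the mitochondrial matrix peroxiredoxin, was clear of both neighbours at 122 ± 2.53 RPKM. Gclm at 75.9 ± 7.63 RPKM and Prdx1 at 68.8 ± 4.96 RPKM overlapped each other. Sod2 at 51.5 ± 2.93 RPKM and Cat at 19.7 ± 5.50 RPKM were lowest and did not overlap each other.

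In input (n = 3) the same 4 genes led, Gpx4 at 398 ± 11.4, Prdx5 at 211 ± 6.29, Prdx2 at 183 ± 1.52 and Sod1 at 158 ± 0.335 RPKM. Prdx1, the cytosolic peroxiredoxin that took place 8 in TRAP, took place 5 in input at 110 ± 4.09 RPKM. Cat at 28.8 ± 1.25 RPKM stood above Sod2 at 26.6 ± 0.589 RPKM there, the reverse of their order in TRAP. The place of Sod1 depends on which transcript its reads come from: with all annotated exons as the length, it fell to place 7 in TRAP and 9 in input.

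**Figure D1:**
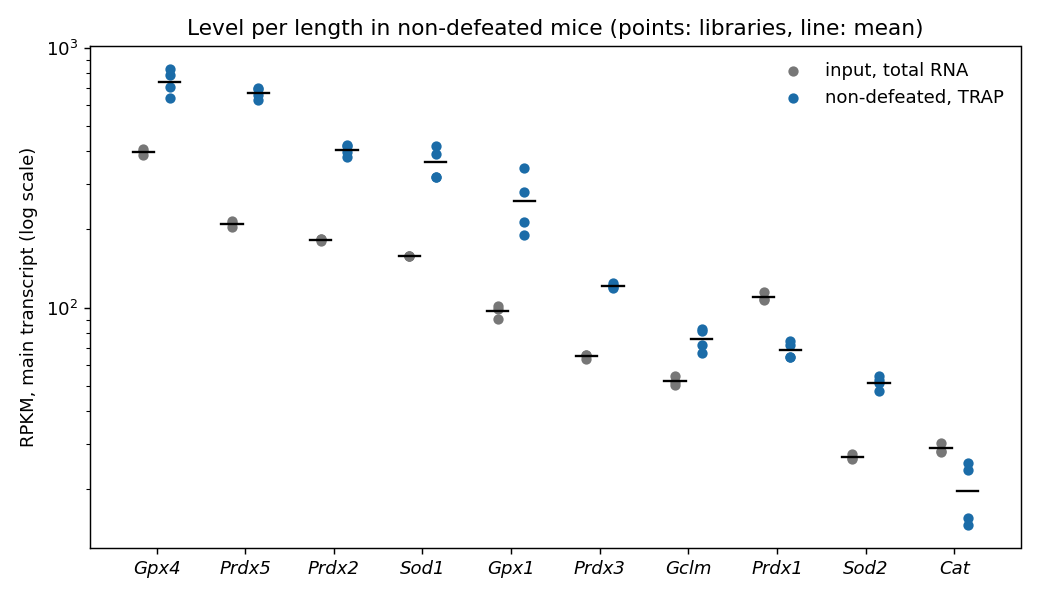
Level of each gene per length of its main transcript, in RPKM on a log scale, in the 3 input libraries (grey, total RNA) and the 4 non-defeated TRAP libraries (blue); lines are means. Prdx1 and Cat are the genes whose TRAP points lie below their input points.

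The first comparison asked which antioxidant enzyme mRNAs were enriched on PV-neuron ribosomes relative to the whole hippocampus. Of the 10 genes, 8 were higher in TRAP of the non-defeated group than in its homogenate, Prdx1 was lower, and Cat did not pass the test (edgeR quasi-likelihood test, adjusted p under 0.05). Over all genes tested, 27.4% were higher and 27.6% lower by the same rule. The median log2 fold change was 0.93 over the 10 genes and -0.04 over all genes tested. In none of the 10 did the libraries of the groups overlap, which held for 62% of all genes tested. The comparison contrasts ribosome-bound RNA of one cell type with total RNA of all, so cell type and RNA fraction cannot be told apart.

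Both superoxide dismutases were enriched. Sod1 was at 101, 102 and 101 CPM in input and at 205, 269, 250 and 204 CPM in non-defeated TRAP. Every TRAP library lay above every input library, with a log2 fold change of 1.19 (SE 0.11, edgeR adjusted p = 6.16e-07). Sod2 was at 155, 153 and 160 CPM in input and at 279, 320, 308 and 300.5 CPM in TRAP. Its log2 fold change was 0.95 (SE 0.07, adjusted p = 1.15e-07), again without overlap. The matrix and the cytosolic enzyme thus differed from input in the same direction.

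Among the peroxiredoxins, 3 were higher and 1 lower. Prdx5 showed the largest difference of the 10 genes, from 273, 257 and 267 CPM in input to 831, 877, 881 and 797 CPM in TRAP. That is a log2 fold change of 1.67 (SE 0.10, edgeR adjusted p = 1.2e-08), or 3.19-fold. Part of its exons, 409 of 2139 bases, overlaps Trmt112 on the opposite strand, and the library kit does not keep strand. Prdx2 went from 292, 295 and 297 CPM in input to 610, 681, 674 and 640.0 CPM in TRAP, a log2 fold change of 1.14 (SE 0.08, adjusted p = 3.49e-08). Its exons overlap Rnaseh2a and Junb on the opposite strand, by 177 and 173 bases. Prdx3 rose from 93.9, 97.5 and 96.8 CPM to 181, 176, 178 and 184 CPM, a log2 fold change of 0.90 (SE 0.07, adjusted p = 1.05e-07). Prdx1 ran the other way, at 263, 248 and 247 CPM in input and 170, 165, 148 and 149 CPM in TRAP. Its log2 fold change was -0.68 (SE 0.15, adjusted p = 0.00189), and here every TRAP library lay below every input library.

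Both glutathione peroxidases, which are selenoproteins, were higher in TRAP. Gpx1 was at 109, 97.1 and 106 CPM in input and at 369, 230, 205 and 299 CPM in TRAP, a log2 fold change of 1.41 (SE 0.27, edgeR adjusted p = 0.00051). The TRAP libraries were spread more widely for Gpx1 than for any other enriched member, with an SD of 26.9% of the mean. Gpx4 stood at 393, 383 and 371 CPM in input and at 680, 796, 751 and 616 CPM in TRAP, a log2 fold change of 0.90 (SE 0.11, adjusted p = 7.23e-06). Gclm, whose product raises the efficiency of the first step of glutathione synthesis, had the smallest enrichment that passed. It moved from 304, 282 and 289 CPM in input to 403, 455, 464 and 375 CPM in TRAP, a log2 fold change of 0.54 (SE 0.09, adjusted p = 9.64e-05). Exons of Gclm overlap Gm17494 on the opposite strand by 296 bases and Gm6061 on the same strand by 244 bases, and both of these held more counts than Gclm.

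Cat was at 73.7, 72.9 and 78.9 CPM in input and at 61.8, 38.1, 40.3 and 66.0 CPM in TRAP. The TRAP libraries fell in a low pair and a high pair, all of them below input. The log2 fold change was -0.54 (SE 0.25, 95% interval -1.08 to -0.0038), at p = 0.0486 in edgeR, p = 0.0815 after adjustment and p = 0.0857 in the exact permutation test. The call was made in 3 alternatives: DESeq2 (adjusted p = 0.0111), a fit of these groups only (0.0342) and a fit without the non-defeated library numbered 9 (0.0424).

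**Figure D2:**
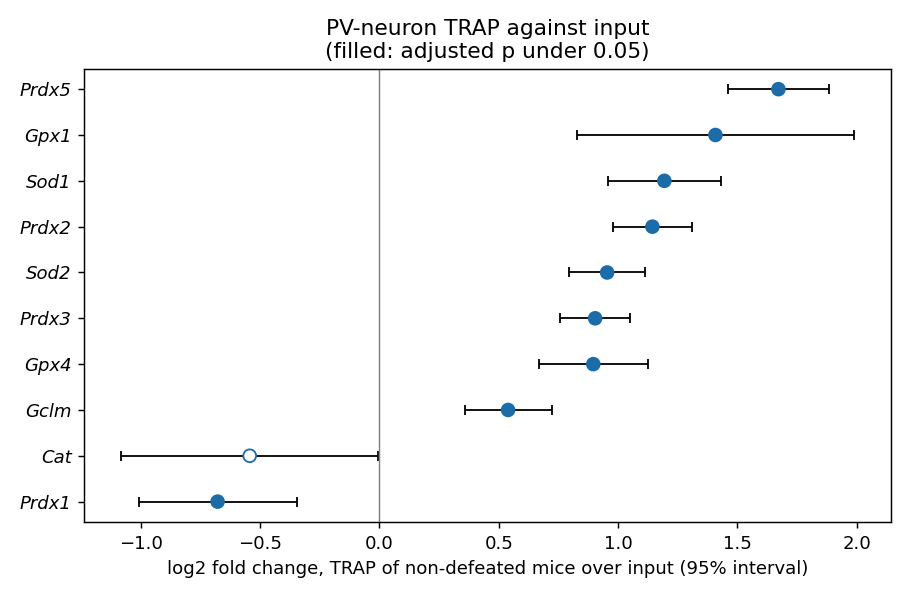
Log2 fold change of each gene in the TRAP of non-defeated mice (n = 4) over input (n = 3), with 95% intervals; filled points have an adjusted p under 0.05. Prdx5 lies farthest to the right at 1.67, Prdx1 and Cat lie left of 0, and Cat is the open point.

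Genes that share reads with near-identical copies carry less certain counts. Annotated processed copies of at least 90% identity over at least 150 coding bases held counts equal to 17.5% of those of Prdx1 (3 copies), 9.92% of Sod1 (Gm8566) and 8.48% of Prdx2 (2 copies). Gpx4 has a pair of such copies, at 99.64% and 95.14% identity. Neither is among the identifiers counted, so their counts could not be added. With the copies' counts added to their genes, the TRAP enrichment of Sod1 was 1.18, that of Prdx2 1.15 and the difference of Prdx1 -0.67 on the log2 scale.

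Of 70 other genes of antioxidant pathways, 25 were higher in TRAP, 22 lower and 23 did not pass, with a median log2 fold change of -0.02. Over all genes tested, 27.4% were higher and 27.6% lower, beside which the counts per list below should be read. No test compared the lists with one another. In the thioredoxin and glutaredoxin system, which supplies electrons to peroxiredoxins, 9 of 13 genes were higher and 2 lower, among them Glrx, a glutaredoxin, at 1.74 (adjusted p = 1.83e-08). Glutathione transferases, which conjugate glutathione to foreign and oxidised compounds, showed 7 of 9 lower and 2 higher. The higher ones included Mgst3, a microsomal transferase with the largest log2 fold change of the 70 at 2.39 (adjusted p = 2.57e-09), while Mgst1 of the same family was at -1.20 (adjusted p = 0.00406).

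Sod3, the extracellular superoxide dismutase, was enriched at 1.66 (adjusted p = 3.8e-05) and belonged to a list of other dismutases and peroxidases with 4 of 7 higher and 1 lower. Chac1, which degrades glutathione, was at 1.43 (adjusted p = 6.45e-08), the only one of 6 genes of glutathione synthesis and recycling to pass. Of 9 genes for NRF2 and its regulators 4 were higher and 1 lower: the small Maf proteins, which pair with NRF2, split into Maff at 1.66 (adjusted p = 0.000339) and Mafk at -1.39 (adjusted p = 9.07e-06).

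Other NRF2 targets had 0 of 6 higher and 3 lower by edgeR, with 1 higher at an unadjusted p under 0.05. Fth1, the ferritin heavy chain that stores iron, fell from 3105 to 3554 CPM in input to 750.4 to 865 CPM in TRAP, a log2 fold change of -1.99 (adjusted p = 2.35e-09). Among 8 genes of NADPH supply 4 were lower and 1 higher, with Me1, malic enzyme, at -1.30 (adjusted p = 0.00206). In selenoprotein synthesis 3 of 8 were higher and 4 lower. Selenop, the selenium carrier of plasma and extracellular fluid, had the lowest value of the 70 at -2.72 (adjusted p = 2.75e-09), beside 2 glutathione peroxidases of the same selenium-dependent class that were enriched. Methionine sulfoxide repair had 1 of 4 higher and none lower.

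The other comparisons asked whether the enzymes' mRNA in PV neurons differed with the outcome of defeat. Resilient and susceptible mice were each set against the same 4 non-defeated libraries, so those comparisons share controls. Across all 11 TRAP libraries Prdx3 varied least, from 164 to 188 CPM (1.14-fold). Sod2 ran from 275 to 331 CPM (1.21-fold) and Gclm from 375 to 464 CPM (1.24-fold). Prdx1, Cat and Gpx1 varied most, by 2.13-fold, 2.12-fold and 2.20-fold.

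**Figure D3:**
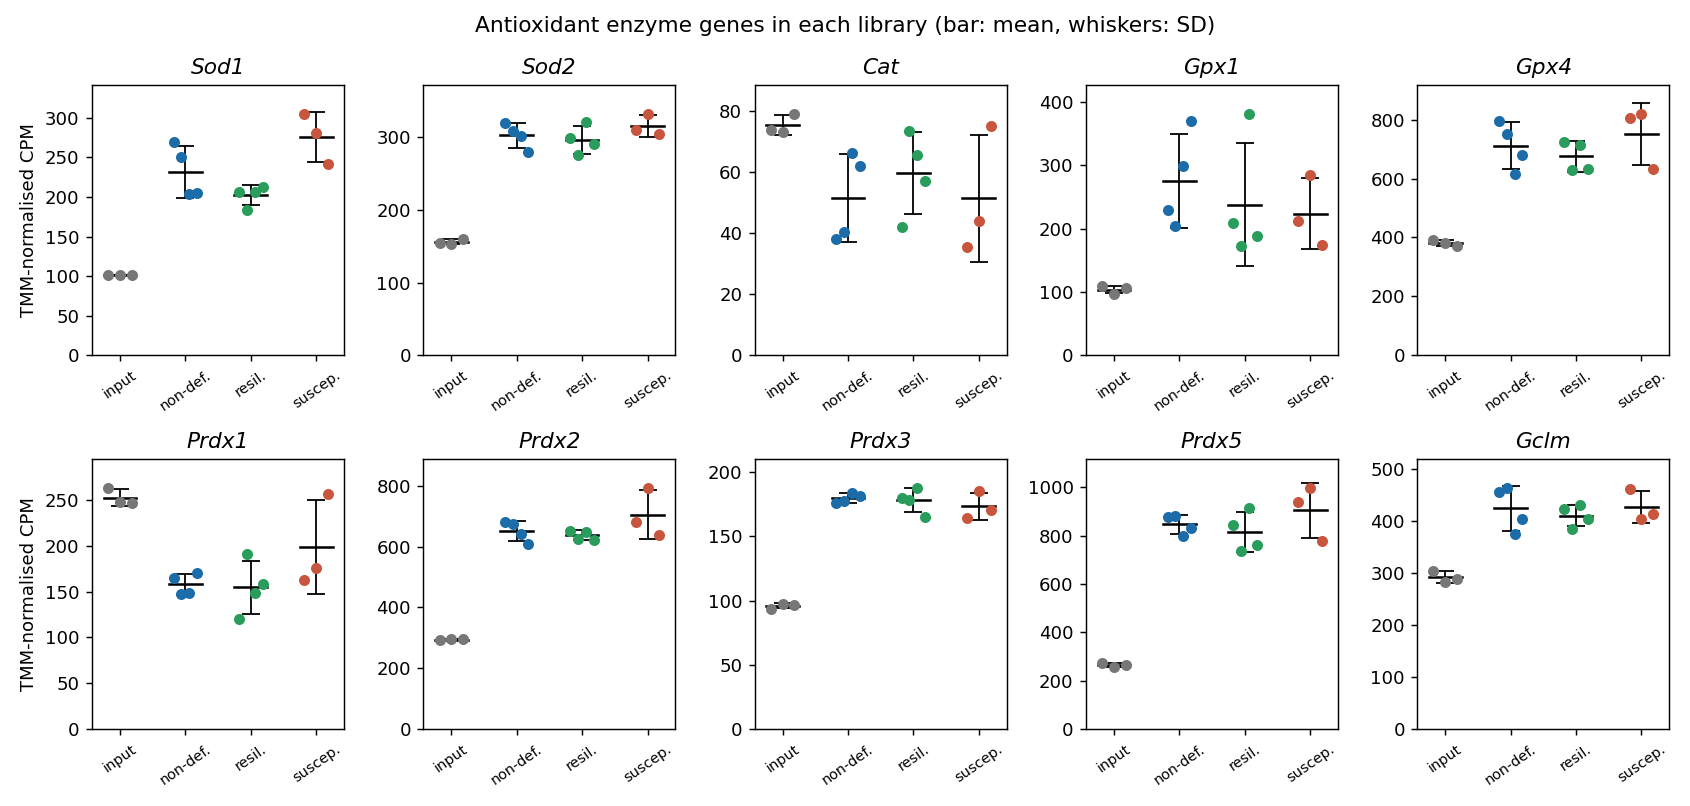
TMM-normalised CPM of each gene in every library, by group; each point is 1 library, the horizontal bar is the group mean and the whiskers are the SD. Every gene but Prdx1 and Cat lies higher in all TRAP libraries than in input, and Sod1 is the gene whose susceptible points all lie above its resilient points.

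Between resilient and non-defeated mice, 0 of 10 genes passed by edgeR, by its likelihood ratio test or by DESeq2, and 0 had an unadjusted p under 0.05. Over all genes the likelihood ratio test called 4 and DESeq2 0. By the quasi-likelihood test the backgrounds over all genes tested were 0% at an adjusted and 4.38% at an unadjusted p under 0.05. Libraries of the groups overlapped for every member, where 2.35% of all genes had none. Sod1 had the smallest p, at 206, 184, 207 and 213 CPM in resilient mice. Only 1 resilient library lay below all non-defeated ones, and the log2 fold change was -0.20 (95% interval -0.41 to 0.01, edgeR p = 0.0651, adjusted p = 1, exact permutation p = 0.286). In libraries numbered 1 to 6 in the sample names the Sod1 difference was -0.41 and in those numbered 7 to 11 it was 0.04. The intervals for Sod2, Prdx2, Prdx3, Prdx5 and Gclm lay within -0.24 to 0.13, which bounds a change in these 5 under the model of all 14 libraries. That model also draws its spread from input, where their SD was 0.831% to 3.85% of the mean. It was 2.08% to 10.2% in the non-defeated and resilient libraries. Cat, from -0.30 to 0.71, and Gpx1, from -0.73 to 0.30, were bounded much less.

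None of the 70 pathway genes passed in this comparison by edgeR, and 3 had an unadjusted p under 0.05, where the background was 4.38%. Bach1, a repressor of NRF2 targets, was at 10.3, 7.77, 9.01 and 9.82 CPM in non-defeated and 6.98, 7.18, 6.47 and 8.20 CPM in resilient mice. Its log2 fold change was -0.35 (adjusted p = 1), with overlapping libraries. Selenop at 0.29 and Msrb3, a methionine sulfoxide reductase, at 0.38 came next, each with an adjusted p of 1.

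Between susceptible and non-defeated mice, 0 of 10 genes passed at an adjusted p under 0.05 by edgeR, by its likelihood ratio test or by DESeq2. Over all genes the likelihood ratio test called 189 and DESeq2 113, and the background of the quasi-likelihood test was 0.0376%. At an unadjusted p under 0.05 there was 1, Sod1, where the background was 13.3%. All members' libraries overlapped between these groups, against 8.62% of all genes tested without overlap. Sod1 was at 305, 281 and 241 CPM in susceptible and 205, 269, 250 and 204 CPM in non-defeated mice. The susceptible libraries with the highest values lay above all non-defeated ones and the lowest lay among them. The log2 fold change was 0.25 (SE 0.11, edgeR p = 0.0338, adjusted p = 0.344, exact permutation p = 0.171). Prdx1 was at 163, 176 and 257 CPM in susceptible against 148 to 170 CPM in non-defeated mice, a log2 fold change of 0.33 (adjusted p = 0.375). Its highest value came from the susceptible library numbered 10, and without that library the difference was 0.10 (adjusted p = 0.727).

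Among the 70 pathway genes 0 passed by edgeR, while 9 were higher and 5 lower at an unadjusted p under 0.05, where the background was 13.3%. Gpx8, an endoplasmic reticulum peroxidase, was at 1.75, 2.71, 2.13 and 1.5 CPM in non-defeated and at 4.0, 3.52 and 4.17 CPM in susceptible mice. The groups did not overlap, which held for 8.62% of all genes tested. The log2 fold change of Gpx8 was 0.95 (SE 0.18, edgeR adjusted p = 0.101, exact permutation p = 0.0571). Mgst1 followed at 1.13 (adjusted p = 0.182) and Selenop at 0.45 (adjusted p = 0.191). All 3 are low in these libraries, and endothelial markers also summed higher in susceptible, at 20.3 to 33.7 CPM, than in non-defeated mice, at 7.64 to 14.1 CPM. Resilient libraries, at 12.7 to 37.8 CPM, were above non-defeated ones in part as well. All 6 endothelial markers had log2 fold changes above 0 in susceptible against non-defeated mice, none passed the test, and 1 was at 0 counts in a non-defeated library. All 5 red blood cell markers were above 0 in this comparison too, with a median log2 fold change of 2.72, and 2 passed the test. They summed to 890 to 1239 CPM in susceptible and 116 to 243 CPM in non-defeated libraries. The part of either list in these values was not tested.

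Between susceptible and resilient mice 1 of 10 genes passed, Sod1, against a background of 1.89%. A pair of genes, Sod1 and Prdx1, had an unadjusted p under 0.05, where the background was 20.9%. Sod1 was at 206, 184, 207 and 213 CPM in resilient mice and at 305, 281 and 241 CPM in susceptible mice. It was the only member without overlap between these groups, which 15.1% of all genes tested had. The log2 fold change was 0.45 (SE 0.11, 95% interval 0.22 to 0.67, edgeR p = 0.000831, adjusted p = 0.0481, exact permutation p = 0.0286), or 1.36-fold. That permutation p is the smallest that 4 libraries against 3 can give.

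The Sod1 call sat close to its threshold. It was made by DESeq2 (adjusted p = 0.0126) and by the likelihood ratio test (0.0106), which called 1004 and 1099 genes over all, against 403 in the main fit. It was also made with at least 10 counts required in every library and with an offset for gene length, which called 542 and 550 genes. The Sod1 call was not made with the library number as a term (0.0621), without a filter on low counts (0.0632), with RLE size factors (0.054) or with near-identical copies added (0.0584). Those fits called 126 to 397 genes over all. Nor was it made in a fit of the TRAP libraries only (0.117) or of the groups compared only (0.145), which called 1 and 0 genes over all. The main fit also draws its spread from input, where the SD of Sod1 was 0.212% of the mean. It was 14.2% in non-defeated, 6.23% in resilient and 11.6% in susceptible libraries. Leaving out 1 library gave log2 fold changes of 0.37 to 0.53 and adjusted p-values of 0.0635, 0.0899, 0.115 and 0.1 without resilient library 3, 5, 7 and 8, and of 0.197, 0.0992 and 0.026 without susceptible library 2, 4 and 10. Within libraries numbered 1 to 6 the difference was 0.59, and within those numbered 7 to 11, with 1 susceptible library, it was 0.20. Red blood cell markers moved with the same contrast, with 5 of 5 above 0, 4 of them past the test, none at 0 counts in any library, and sums of 890 to 1239 CPM in susceptible against 129 to 599 CPM in resilient mice. Within the resilient group, library 5 had the highest sum, at 598.5 CPM, and the lowest Sod1, at 184 CPM. Within the susceptible group, library 10 had the highest sum, at 1239 CPM, and the lowest Sod1, at 241 CPM. The part of these markers in the Sod1 difference was not tested.

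**Figure D4:**
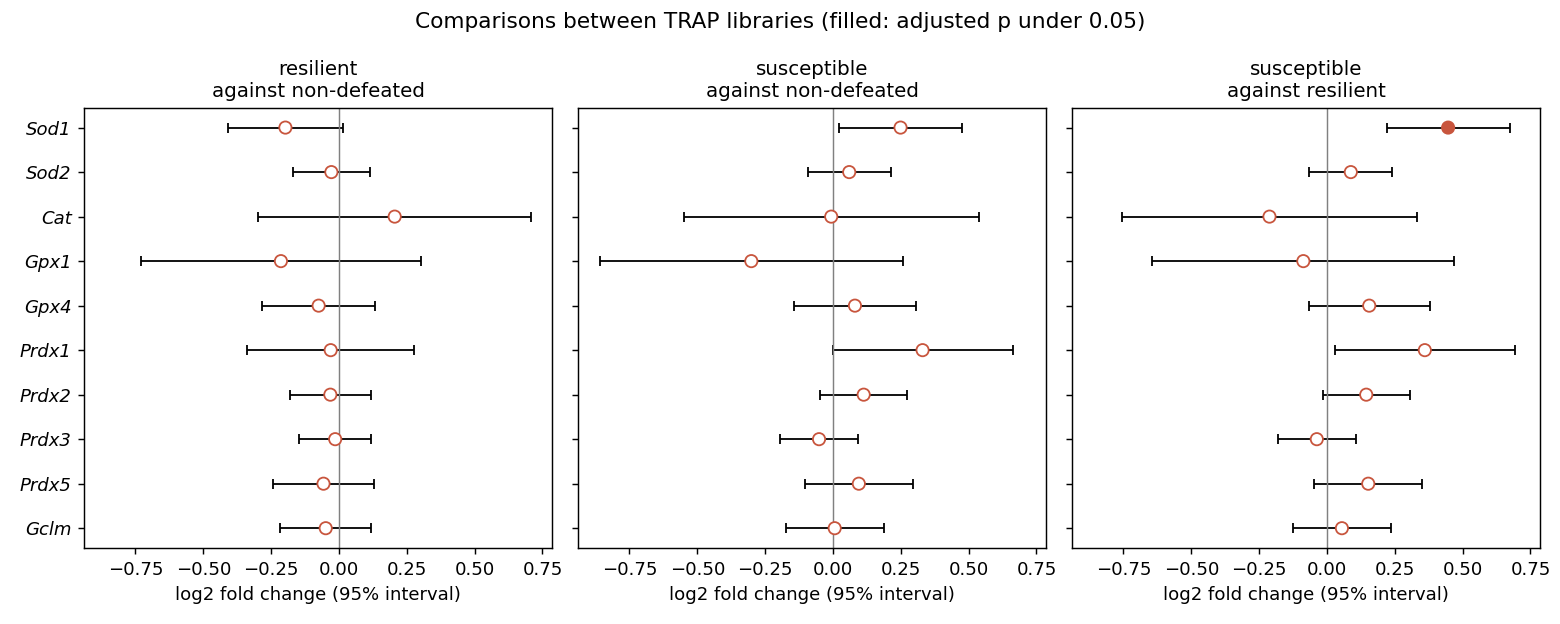
Log2 fold change of each gene with its 95% interval in the comparisons between resilient (n = 4), susceptible (n = 3) and non-defeated (n = 4) TRAP libraries; filled points have an adjusted p under 0.05. Sod1 in susceptible against resilient mice, at 0.45, is the filled point, and Cat and Gpx1 have wide intervals in every panel.

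The other members did not pass between susceptible and resilient mice. Prdx1 had a log2 fold change of 0.36 (95% interval 0.03 to 0.69, edgeR adjusted p = 0.203), with 120, 191, 148 and 159 CPM in resilient and 163, 176 and 257 CPM in susceptible mice. It dropped to 0.13 (adjusted p = 0.601) without susceptible library 10. Leaving out that library raised the number of members at an unadjusted p under 0.05 from 2 to 5: Sod1 at 0.53, Prdx5 at 0.25, Prdx2 at 0.21 and Gpx4 at 0.27 above 0, and Cat at -0.59 below 0. Over all genes the share at an unadjusted p under 0.05 was 24.0% in that fit against 20.9% with all libraries, and adjusted calls went from 403 to 1058. Of these 5, Sod1 alone passed the adjustment. Prdx2 and Prdx5 were at 0.14 and 0.15 with all libraries (adjusted p = 0.287 and 0.373), and Gpx4 at 0.16 (adjusted p = 0.421). The mitochondrial enzymes Sod2 and Prdx3 were at 0.09 and -0.04, with intervals of -0.07 to 0.24 and -0.18 to 0.11. Gclm was at 0.06, with an interval of -0.12 to 0.24.

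Of the 70 pathway genes 0 passed in this comparison by edgeR, with 5 higher and 4 lower at an unadjusted p under 0.05, where the background was 20.9%. Gpx8 was at 2.26, 2.38, 2.18 and 2.66 CPM in resilient mice, below all 3 susceptible libraries, and its log2 fold change was 0.72 (adjusted p = 0.0586). The 6 endothelial markers had a median of 0.02 in this comparison, from -0.37 for Slco1a4 to 0.62 for Ly6c1, with 3 above 0 and none past the test. The 5 red blood cell markers had a median of 1.76. The part of either list in the Gpx8 value was not tested. Txn1, the cytosolic thioredoxin that reduces oxidised peroxiredoxins, was at 165, 146, 157 and 146 CPM in resilient and at 213, 231 and 178 CPM in susceptible mice. Its libraries also did not overlap, which held for 15.1% of all genes tested, and its log2 fold change was 0.44 (adjusted p = 0.0595). Txnrd1, the reductase that recharges thioredoxin, ran the other way, from 79.7 to 101 CPM in resilient to 61.0 to 78.1 CPM in susceptible mice, at -0.34 (adjusted p = 0.0909).

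Cat and Gpx1 varied more within groups than between them. Across the 11 TRAP libraries Cat was at 35.3 to 43.9 CPM in 5 libraries and at 57.1 to 74.8 CPM in the other 6, and both sets held libraries of all 3 groups. The 5 low libraries, numbered 1, 2, 3, 4 and 6, were also the 5 with the lowest summed astrocyte markers, at 166 to 172 CPM against 218 to 352 CPM in the others, and none of the 6 astrocyte markers was at 0 in any library. The same 5 libraries had the lowest summed microglia markers, at 33.4 to 36.5 CPM against 39.7 to 45.0 CPM in the others, with none of the 6 at 0. Aldh1l1, the astrocyte marker that did not pass as lower in TRAP, is part of the astrocyte sum. It ran from 23.9 to 64.3 CPM in non-defeated, 22.3 to 66.7 CPM in resilient and 18.6 to 57.0 CPM in susceptible libraries. The part of either cell type in the level of Cat was not tested. Prdx1 and Gpx1 each shared 2 of their 5 lowest libraries with that set. Susceptible library 10 had the highest Prdx1, at 257 CPM, the highest Cat, at 74.8 CPM, and the highest astrocyte sum of the TRAP libraries. Gpx1 was highest in a resilient library at 381 CPM and lowest in another at 173 CPM. Its difference was -0.21 in resilient and -0.30 in susceptible against non-defeated mice, and -0.09 between susceptible and resilient mice, none past the test (adjusted p = 1, 0.635 and 0.885).

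**Figure D5:**
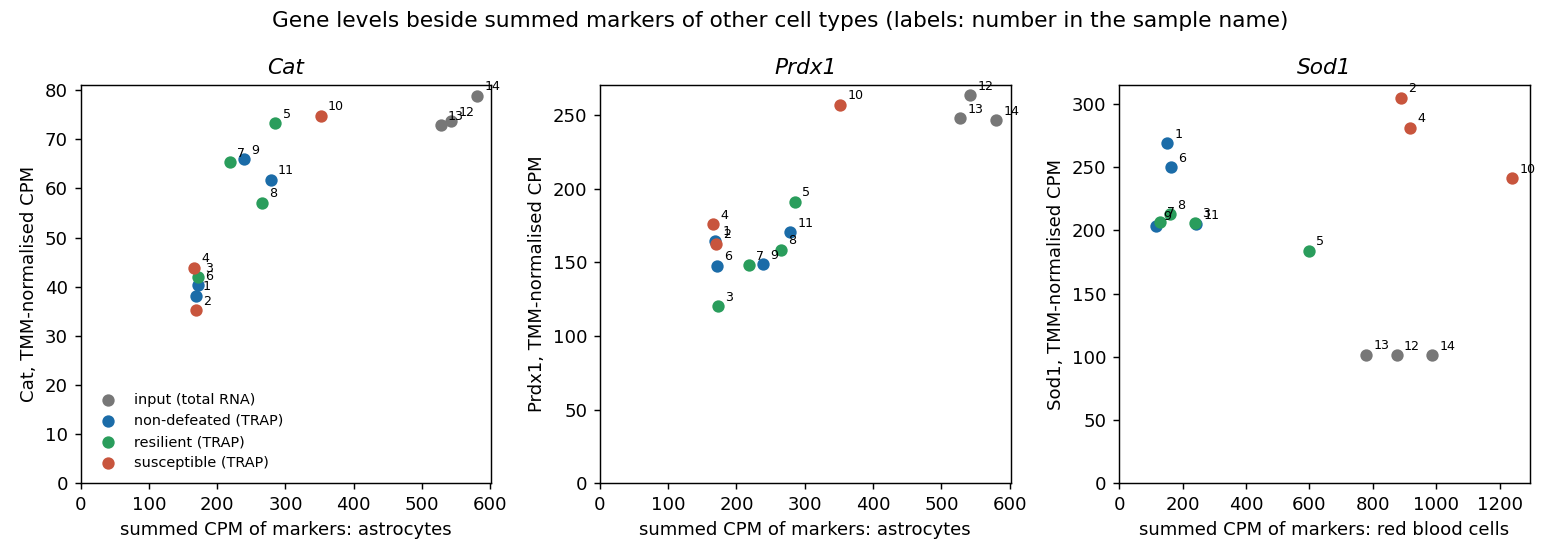
TMM-normalised CPM of Cat and Prdx1 against the summed CPM of 6 astrocyte markers, and of Sod1 against the summed CPM of 5 red blood cell markers; each point is 1 library, labelled with the number in its sample name. The 5 low Cat libraries share the lowest astrocyte sums, and the 3 susceptible libraries have higher Sod1 and higher red blood cell sums than the 4 resilient ones. Within the resilient and within the susceptible group, the library with the highest red blood cell sum (5 and 10) has the lowest Sod1. The part of the markers in these levels was not tested.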

How the data were processed

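The authors deposited raw counts of reads per gene for 14 libraries, made from single reads of full-length amplified cDNA, a kit that keeps no strand. The submitters' processing notes list STAR 2.5.3a, HTSeq and the build mm10. The strand setting used in counting is not given in the sources used here.

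Genes were named from GENCODE M21 (37693 of 39017 identifiers), and unnamed identifiers held 0.824% of counts. Counts were fitted in edgeR 4.0.16 (R 4.3.3) in one model of all 14 libraries, with TMM normalisation, the default filter on low counts and the quasi-likelihood test, 2-sided, with Benjamini-Hochberg adjustment over 21298 genes. CPM are TMM-normalised. Exact permutation tests used log2 CPM with a prior count of 2. RPKM used the principal transcript. The scripts were tested on simulated data. Totals were 64110214 to 94726962 counts per library, so counting error is small beside the spread between libraries. No libraries of a group agreed within counting noise.

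All 10 members are named. Pathway genes are named by rank: against input the 5 largest and 5 smallest log2 fold changes past the test, and between stress groups the 3 smallest p-values. The members and gene lists were chosen with earlier results of these data known. The alternatives were DESeq2 1.42.0, the likelihood ratio test, RLE factors, other count filters, other sets of libraries, a gene length offset, a term for libraries numbered 1 to 6 or 7 to 11, leaving out each library and, added after seeing the data, counts of near-identical copies.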

Additional observations from a re-analysis of the deposited data

How the results depend on the processing

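Against input, 9 or 10 members passed in all 8 other settings and all 7 fits without 1 library, and no member changed direction. In the comparisons of resilient or susceptible with non-defeated mice the count stayed at 0 in every setting. Between susceptible and resilient mice the count of 1, Sod1, went to 0 with the library number as a term, without a filter on low counts, in a fit of the groups compared only, with RLE size factors, in a fit of the TRAP libraries only and with near-identical copies added. Without 1 library it ranged from 0 to 1. In those 6 settings the adjusted p of Sod1 was 0.0621, 0.0632, 0.145, 0.054, 0.117 and 0.0584, beside log2 fold changes of 0.41 to 0.46. Over all genes, the fit of the TRAP libraries only called 1 and that of the groups compared only 0, against 403 in the main fit. The cause was not tested.

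Directions turned only for log2 fold changes that did not pass. With the library number as a term, those of susceptible against non-defeated mice became 0.0625 for Cat and -0.0085 for Gclm, and that of Gpx1 in susceptible against resilient mice became 0.0272. Without 1 library, the range in susceptible against non-defeated mice was -0.38 to 0.20 for Cat and -0.0541 to 0.052 for Gclm. Between susceptible and resilient mice it was -0.0054 to 0.0918 for Gclm and -0.30 to 0.24 for Gpx1. Between resilient and non-defeated mice it was -0.15 to 0.0723 for Prdx1, -0.0409 to 0.0197 for Prdx3 and -0.0686 to 0.0063 for Sod2. With 3 or 4 libraries a group, the intervals of Cat and Gpx1 leave room for changes as large as that of Sod1. No paired analysis was possible because the groups share no sample numbers.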
